A study of Rattus norvegicus with 24 samples.

Results

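The opioid receptors are the 4 G protein-coupled receptors encoded in the rat by Oprm1 (the mu receptor), Oprd1 (the delta receptor), Oprk1 (the kappa receptor) and Oprl1 (the nociceptin receptor). They were taken by gene name as 4 of the 23950 genes listed for each library, and their transcript levels were followed in all 24 libraries. Each name matched 1 gene: Oprm1 is ENSRNOG00000018191, Oprd1 is ENSRNOG00000010531, Oprk1 is ENSRNOG00000007647 and Oprl1 is ENSRNOG00000016768.

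Opioid receptors couple to inhibitory Gi/o proteins, which lower cyclic AMP production by adenylyl cyclases, open inwardly rectifying potassium channels and close presynaptic calcium channels. Enkephalins, cut from the Penk precursor, act mainly on delta and mu receptors, dynorphins from Pdyn act on kappa receptors, beta-endorphin from Pomc acts on mu and delta receptors, and nociceptin from Pnoc acts on the nociceptin receptor. In the nucleus accumbens (NAc), a ventral striatal area of the reward pathway, mu receptors are concentrated in patches called striosomes, and the medium spiny projection neurons make enkephalin or dynorphin. Oxycodone (oxy), the opioid given here, acts mainly through the mu receptor.

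RNA came from the NAc of Sprague Dawley rat pups at postnatal day (P) 14. The study asked how oxy exposure in utero or after birth bears on the exposed pups (F1) and on their offspring (F2). In the IUO group the F0 females were gavaged with 10 mg/kg/day oxy for 5 days, escalated by 0.5 mg/kg/day over 10 days to 15 mg/kg/day, and kept on that dose from mating to weaning, so the F1 IUO pups met the drug both in the womb and through the milk. In the PNO group the dams received 15 mg/kg/day from parturition to weaning, and the SAL groups descended from saline controls. F2 pups came from F1 females of each line, which received no oxy around breeding, mated to males naïve to the experiment.
There were 4 pups, each from a separate litter, in each of the 6 groups: F1 SAL, F1 PNO, F1 IUO, F2 SAL, F2 PNO and F2 IUO. The labels do not give the sex of the pups, which were picked as males or females at random. The whole tissue punch was sequenced, so fewer cells of a type and less RNA per cell cannot be told apart.

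Values are FPKM, fragments scaled to transcript length and to the mapped fragments of the library, a level per length that allows a rough comparison between genes. FPKM summed to between 535866 and 766781 per library, between 4782 and 7532 genes were listed at 0, and the read depth behind a value is unknown. All 10 striatal projection neuron markers were above 0 in every library, with a summed level of 371 to 1100 FPKM. Thalamus markers ranged from 21.1 to 335 summed FPKM. A value of 0 can be a failed estimate, since the endothelial gene Cldn5 was listed at 0 in 22 of 24 libraries. The Y-linked gene Kdm5d stood at 4.98 to 6.84 FPKM in all 4 F1 SAL libraries and at 0 to 0.49 in F2 SAL, so generation and this difference cannot be told apart in the saline groups. In F2 PNO replicate 4, pituitary hormone genes were high (Gh1 4682 FPKM, at most 4.79 in the 23 others), and the comparisons between pairs of groups that use it were also computed without it.

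Oprl1 was the most abundant of the 4 receptors in 24 of 24 libraries. Over all libraries its level was 6.71 ± 1.26 FPKM (mean ± SD, n = 24), with a lowest value of 3.75, a median of 6.97 and a highest of 8.37. Oprk1 came next at 1.80 ± 0.572 FPKM and was above Oprd1 in 23 of 24 libraries. Oprd1 had a median of 0.795 FPKM and Oprm1 a median of 0.14 FPKM. On average Oprl1 made up 70.2% of the summed receptor FPKM, Oprk1 18.4%, Oprd1 9.68% and Oprm1 1.67%. Oprm1 never reached 1 FPKM, and it was at or above 0.1 FPKM in 18 of 24 libraries. Its level and share are uncertain, since it has 8 listed transcripts and lies across other genes, as described below. Within a library a median of 67.6% of all genes had a lower level than Oprl1, against 49.1% for Oprk1, 41.7% for Oprd1 and 29.1% for Oprm1.

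The spread among pups, relative to the mean, was wider for Oprd1 and Oprm1 than for Oprk1 and Oprl1 in each of the 6 groups. The coefficient of variation within a group ran from 6.52% to 32.1% for Oprl1 and from 13.1% to 49.8% for Oprk1. It ran from 27.3% to 120% for Oprd1 and from 24.1% to 108% for Oprm1, where a listed 0 was entered as 0. When the 6 groups were put in the order of their mean level, every pair of neighbouring groups overlapped for every receptor. The smallest p between neighbours was 0.314 for Oprm1, 0.114 for Oprd1, 0.257 for Oprk1 and 0.286 for Oprl1 (exact permutation test, two-sided, 4 against 4). Neighbours in this order are the closest groups by construction, so these p-values do not bear on groups farther apart. Among those, F1 PNO and F1 SAL did not overlap for Oprl1.

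**Figure D1:**
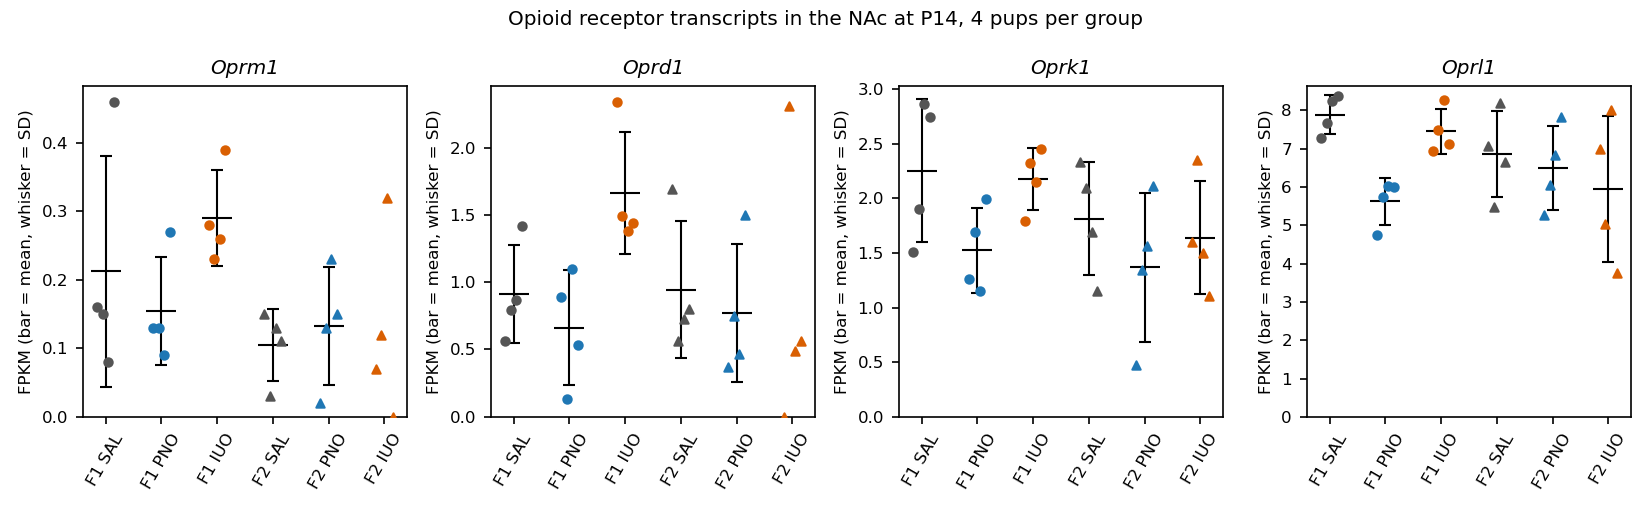
Level of each opioid receptor transcript (vertical axis, FPKM, linear from 0) in the 6 groups (horizontal axis), with 1 point per pup (circles F1, triangles F2), a bar for the mean and whiskers for the SD. The F2 IUO group has no bar for Oprm1 and Oprd1, where 1 library is listed at 0. The 4 F1 PNO points for Oprl1, from 4.74 to 6.03 FPKM, lie below all F1 SAL and F1 IUO points.

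Differences between groups were tested with limma on log2(FPKM + 0.1), fitted over all genes. Of 24 receptor tests between treatments within a generation, 4 had an unadjusted p under 0.05, all in F1 and all for Oprl1 or Oprd1. None of these 4 had an adjusted p under 0.05 after Benjamini-Hochberg correction over all genes, and the lowest adjusted p was 0.194. Over all genes tested such an adjusted p was found for 0.133% in F1 IUO against F1 PNO, 0.00576% in F2 PNO against F2 SAL, 0.0343% in F2 SAL against F1 SAL, 0.0288% in F2 PNO against F1 PNO and 0% in the other 5 comparisons. The F1 SAL, F1 PNO and F1 IUO libraries each enter more than 1 comparison, so the comparisons are not independent of each other. The Oprd1 differences with an unadjusted p under 0.05 both use the same F1 IUO libraries. With 4 pups against 4, the exact permutation test cannot give a two-sided p below 0.0286, which is reached when the groups do not overlap in the same direction.

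Oprm1 encodes the mu receptor, the main target of oxy, morphine and beta-endorphin. In F1 SAL its level was 0.16, 0.15, 0.08 and 0.46 FPKM, and in F1 PNO it was 0.13, 0.13, 0.09 and 0.27. In F1 IUO the 4 pups had 0.28, 0.23, 0.26 and 0.39 FPKM. The F1 IUO pups were all above 3 of the 4 F1 SAL pups, but the other F1 SAL pup, replicate 4, was the highest of the 24 libraries, so the groups overlapped.
The difference of F1 IUO against F1 SAL was 0.44 on the log2 scale (95% CI −0.56 to 1.43, exact permutation p = 0.314, limma adjusted p = 0.999), and that of F1 IUO against F1 PNO was 0.64 (−0.22 to 1.51, exact permutation p = 0.0857, limma adjusted p = 0.443). F1 PNO differed from F1 SAL by −0.20 (−1.18 to 0.77, exact permutation p = 0.600, limma adjusted p = 0.866). Each of these 3 intervals reaches past a 2-fold difference in at least 1 direction.

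In the F2 pups Oprm1 was at 0.15, 0.03, 0.13 and 0.11 FPKM in SAL, and at 0.02, 0.13, 0.23 and 0.15 FPKM in PNO. In F2 IUO it was at 0.07, 0.12 and 0.32 FPKM in replicates 1 to 3 and listed at 0 in replicate 4. Replicate 4 of F2 IUO had the most genes listed at 0 of all libraries, 7532. All 3 groups overlapped, and the limma p-values of the 3 F2 comparisons lay at or above 0.771. RefSeq's GRCr8 annotation places Oprm1 across 3 other genes, among them Ipcef1. Whether reads were counted by strand is not given in the sources used here, so low values of this gene are uncertain.

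Oprd1 encodes the delta receptor, which binds enkephalins. In F1 SAL its level was 0.56, 0.79, 0.87 and 1.42 FPKM, and in F1 PNO it was 0.89, 0.13, 1.10 and 0.53. In F1 IUO the values were 2.34, 1.49, 1.38 and 1.44 FPKM. Every F1 IUO pup was above every F1 PNO pup, while the lowest F1 IUO value, 1.38, was just under the highest F1 SAL value, 1.42.
The mean level in F1 IUO, 1.66 ± 0.454 FPKM (SD, n = 4), was 2.51 times that in F1 PNO, 0.663 ± 0.426 FPKM. On the log2 scale this was a difference of 1.42 with an SE of 0.49 (limma p = 0.0172, adjusted p = 0.211, exact permutation p = 0.0286). In this comparison 16.5% of all genes tested had an unadjusted p under 0.05, and 2 of the 4 receptors did. Among all genes tested, 10.5% had groups that did not overlap, again against 2 of 4 receptors.
Against F1 SAL, at 0.910 ± 0.365 FPKM, the F1 IUO mean was 1.83 times as high, a log2 difference of 0.84 with an SE of 0.31 (limma p = 0.0246, adjusted p = 0.999, exact permutation p = 0.0571). Here 1 of the 4 receptors had an unadjusted p under 0.05, beside 3.91% of all genes tested, and 0 of 4 had groups that did not overlap, beside 2.54%. The unadjusted limma p was above 0.05 without F1 IUO replicate 1 (log2 difference 0.67), F1 SAL replicate 1 (0.66) or F1 SAL replicate 2 (0.80). F1 PNO differed from F1 SAL by −0.58 (95% CI −1.73 to 0.57, exact permutation p = 0.429, limma adjusted p = 0.643).

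In the F2 pups Oprd1 stood at 1.69, 0.56, 0.73 and 0.80 FPKM in SAL, and at 0.37, 0.75, 0.47 and 1.5 FPKM in PNO. In F2 IUO it was listed at 0 in replicate 1 and was at 2.31, 0.49 and 0.56 FPKM in the others. The F2 IUO group thus held both the lowest F2 value and the highest, and spanned both other F2 groups.
F2 IUO differed from F2 SAL by −0.81 on the log2 scale (95% CI −2.68 to 1.06, exact permutation p = 0.457, limma adjusted p = 0.769). That difference rests on the listed 0, since without F2 IUO replicate 1 it was 0.015. The Y-linked gene Kdm5d was above 1 FPKM in 3 of 4 F2 IUO and 0 of 4 F2 SAL libraries, and with a Y-linked covariate the difference was −2.47 with an unadjusted p under 0.05. F2 IUO replicate 1, with Oprd1 listed at 0, had a mean log2 level of Y-linked genes of −2.27, against 3.09 to 3.42 in the other F2 IUO libraries. The covariate value thus also draws on that listed 0, and it was not computed without that library. F2 PNO differed from F2 SAL by −0.32 (−1.38 to 0.74, exact permutation p = 0.514, limma adjusted p = 0.813).

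Oprk1 encodes the kappa receptor, the receptor of dynorphin. In F1 SAL its level was 1.51, 1.90, 2.86 and 2.74 FPKM, and in F1 PNO it was 1.26, 1.69, 1.15 and 1.99. In F1 IUO the pups had 1.79, 2.32, 2.15 and 2.45 FPKM. F1 PNO had the 2 lowest values of the 12 F1 pups, and its highest pup lay inside the range of both other groups.
The F1 PNO mean, 1.52 ± 0.389 FPKM, was 0.676 times the F1 SAL mean of 2.25 ± 0.654 (log2 difference −0.52, 95% CI −1.11 to 0.07, exact permutation p = 0.143, limma adjusted p = 0.401). The F1 IUO mean, 2.18 ± 0.286 FPKM, was 1.43 times the F1 PNO mean (0.51, −0.0074 to 1.03, exact permutation p = 0.0571, limma adjusted p = 0.310). Neither passed the unadjusted test with all libraries. The p of the second was 0.0328 without F1 IUO replicate 1 and 0.0272 without F1 PNO replicate 4, and that of the first was 0.0436 without F1 PNO replicate 4 and 0.0254 without F1 SAL replicate 1. F1 IUO and F1 SAL differed by −0.011 (−0.56 to 0.54, exact permutation p = 1, limma adjusted p = 0.999).

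In F2 the Oprk1 level was 2.33, 2.09, 1.69 and 1.15 FPKM in SAL and 0.47, 1.34, 1.56 and 2.11 in PNO. In F2 IUO it was 1.60, 2.35, 1.5 and 1.11 FPKM. F2 PNO replicate 1 had the lowest value of all 24 libraries and the only one under 1 FPKM. That library also had the lowest mean log2 level of striosome markers (2.08) and of cortex markers (0.018) among the 24. Its oligodendrocyte markers had the highest such level (8.45). The 3 F2 groups overlapped, with log2 differences of −0.50 for PNO against SAL (exact permutation p = 0.400, limma adjusted p = 0.683), −0.14 for IUO against SAL (exact permutation p = 0.600, limma adjusted p = 0.900) and 0.36 for IUO against PNO (exact permutation p = 0.571, limma adjusted p = 0.923). Without F2 PNO replicate 1 the last of these was −0.048.

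Oprl1 encodes the nociceptin receptor, which is related to the other 3 in sequence but does not bind the classical opioid drugs with high affinity. In F1 SAL its level was 7.27, 7.67, 8.25 and 8.37 FPKM, and in F1 PNO it was 4.74, 5.73, 6.03 and 5.99. In F1 IUO the values were 6.94, 7.49, 8.27 and 7.11 FPKM. All 4 F1 PNO pups were below all 8 pups of the other F1 groups, which overlapped each other.
The F1 PNO mean, 5.62 ± 0.603 FPKM (SD, n = 4), was 0.713 times the F1 SAL mean of 7.89 ± 0.514. The log2 difference was −0.49 with an SE of 0.12 (limma p = 0.00258, adjusted p = 0.231, exact permutation p = 0.0286). Oprl1 was the only receptor with an unadjusted p under 0.05 in this comparison, in which 13.9% of all genes tested had one and 8.27% had groups that did not overlap.
The F1 IUO mean, 7.45 ± 0.592 FPKM, was 1.33 times the F1 PNO mean, a log2 difference of 0.40 with an SE of 0.13 (limma p = 0.0132, adjusted p = 0.194, exact permutation p = 0.0286). F1 IUO and F1 SAL differed by −0.082 (95% CI −0.35 to 0.19, exact permutation p = 0.286, limma adjusted p = 0.999). The 2 differences of F1 PNO kept an unadjusted p under 0.05 without any 1 library, at −0.52 to −0.41 against F1 SAL and 0.33 to 0.44 for F1 IUO against F1 PNO. After rescaling each library to its upper quartile, the latter was 0.28, with an unadjusted limma p above 0.05, while the median of all genes moved by −0.12 in that comparison.

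In the F2 pups Oprl1 was at 7.07, 5.48, 8.20 and 6.65 FPKM in SAL and at 5.27, 6.04, 6.84 and 7.83 in PNO. In F2 IUO it was at 6.99, 5.04, 8.0 and 3.75 FPKM. The groups overlapped throughout, and F2 IUO replicate 4 was the lowest of the 24 libraries. That library also had the most genes listed at 0, 7532. F2 PNO differed from F2 SAL by −0.076 (95% CI −0.49 to 0.34, exact permutation p = 0.657, limma adjusted p = 0.895) and F2 IUO from F2 SAL by −0.24 (−0.80 to 0.31, exact permutation p = 0.400, limma adjusted p = 0.761).

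**Figure D2:**
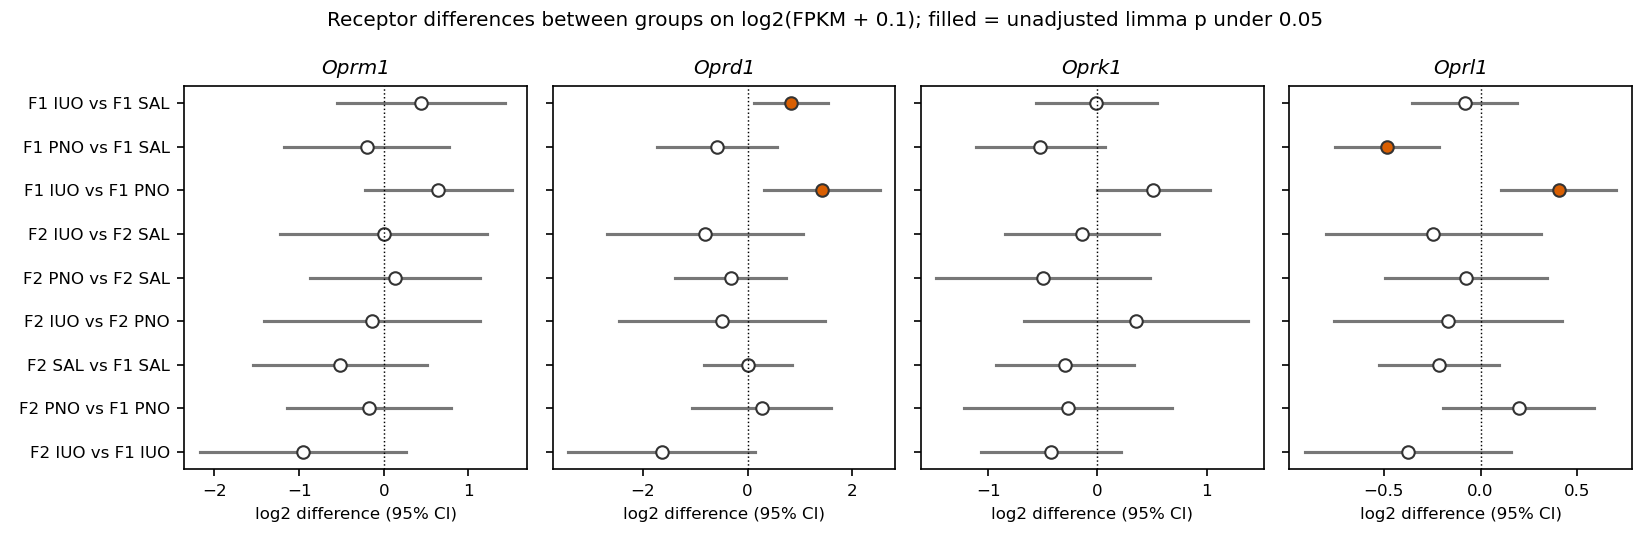
Log2 difference of each receptor (horizontal axis, on log2(FPKM + 0.1), first group minus second) with its 95% confidence interval in the 9 comparisons (vertical axis). Filled points have an unadjusted limma p under 0.05, which holds for 2 comparisons of Oprd1 and 2 of Oprl1, all between F1 groups.

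In F2, 0 of the 12 receptor tests between treatments had an unadjusted limma p under 0.05. The share of all genes tested that did was 8.49% for F2 IUO against F2 SAL, 10.8% for F2 PNO against F2 SAL and 7.07% for F2 IUO against F2 PNO. All 4 receptors overlapped between groups in these comparisons, in which 5.11%, 7.01% and 4.74% of genes had groups that did not. A call in F1 and none in F2 does not show that the generations differ, so the difference was tested as an interaction term over 16 libraries. For Oprl1 the PNO against SAL difference was 0.41 higher in F2 than in F1 (SE 0.21), and the IUO against PNO difference changed by −0.57 (SE 0.30, limma adjusted p = 0.902). For Oprd1 the IUO against PNO difference changed by −1.91 between generations (SE 1.07, limma adjusted p = 0.918) and the IUO against SAL difference by −1.65 (SE 0.95, limma adjusted p = 0.924). The other 8 interaction terms had limma p-values from 0.240 to 0.960. None of the 12 receptor terms had an unadjusted p under 0.05, beside 5.15% of all genes in the IUO and SAL fit, 4.06% in the PNO and SAL fit and 5.76% in the fit of IUO and PNO.

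Between generations of 1 treatment, 0 of 12 receptor tests had an unadjusted p under 0.05 in limma, beside 8.48% of all genes for SAL, 4.76% for PNO and 15% for IUO. Groups did not overlap for 0 of 4 receptors in each of them, beside 4.98%, 3.34% and 10.7% of all genes. All 4 receptors were lower on average in F2 IUO than in F1 IUO. So were all 10 projection neuron markers (median −0.56, 5 at an unadjusted p under 0.05) and all 5 striosome markers (median −0.67, 2 at such a p), and their part in the receptor values was not tested. Oprd1 differed by −1.64 (95% CI −3.42 to 0.15, exact permutation p = 0.114, limma adjusted p = 0.365) and Oprm1 by −0.95 (−2.17 to 0.26, exact permutation p = 0.114, limma adjusted p = 0.429). Oprk1 differed by −0.43 (exact permutation p = 0.114, limma adjusted p = 0.503) and Oprl1 by −0.38 (exact permutation p = 0.229, limma adjusted p = 0.474). Both Oprd1 and Oprm1 have 1 F2 IUO library listed at 0, which enters these values as 0. In 1 fit of all 24 libraries, the same differences of Oprd1 and Oprm1 had limma p-values of 0.0230 and 0.0402. Without 1 F2 IUO library the unadjusted limma p was also under 0.05 for Oprd1 (−2.35 without replicate 2), Oprm1 (−1.31 without replicate 3) and Oprl1 (−0.54 without replicate 3).

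Markers of several tissues moved with the F1 groups, those of thalamus with F1 PNO. Their summed level was 131 to 335 FPKM in F1 PNO, 21.1 to 166 in F1 SAL and 28.2 to 156 in F1 IUO, and 7 of 7 thalamus markers were above F1 SAL in F1 PNO at an unadjusted limma p under 0.05, with a median log2 difference of 1.63. Lhx9, one of the 7, was listed at 0 in 3 of 24 libraries, and the other 6 were above 0 in all. Tcf7l2, also among the 7, was a hit that the study picked from these same libraries. All 5 habenula markers were also above F1 SAL, 2 of them at such a p. Pou4f1 among them was listed at 0 in 12 of 24 libraries (at most 0.96 FPKM) and Chrnb3 in 7 (at most 0.54 FPKM). Gpr151 and Irx2 were listed at 0 in 2 libraries each. All 5 striosome markers were below F1 SAL in F1 PNO, by a median of −0.42 and with such a p for 3, and all 10 projection neuron markers were below it, by a median of −0.49 and with such a p for 1. The summed habenula level was 3.4 to 9.44 FPKM in F1 PNO, 1.15 to 3.87 in F1 SAL and 0.820 to 1.70 in F1 IUO. In F1 IUO all 7 thalamus and all 5 habenula markers were below F1 PNO, 6 and 3 of them at such a p. All 10 projection neuron markers (median 0.54, 7 at such a p) and all 5 striosome markers (median 0.39, 4 at such a p) were above F1 PNO there. The summed projection neuron level was 657 to 954 FPKM in F1 IUO and 452 to 630 in F1 PNO, ranges that do not overlap. The summed striosome level did not overlap either, at 85.6 to 98.4 FPKM in F1 IUO and 65.6 to 79.8 in F1 PNO. These levels and the treatment cannot be told apart in that comparison. Their part in the F1 receptor differences was not tested.
Markers of hypothalamus moved with F1 IUO. Their summed level was 71.8 to 180 FPKM in F1 IUO, 9.56 to 23.3 in F1 PNO and 18.8 to 71.8 in F1 SAL. Of the 8, 6 were above F1 PNO at an unadjusted p under 0.05 (median of the 8, 3.10 on the log2 scale), 1 of them with an adjusted limma p under 0.05, and 4 were above F1 SAL at such a p (median 1.31). In F1 PNO 4 of 8 were below F1 SAL at such a p (median −0.41). Pmch was listed at 0 in 3 of 24 libraries, Otp in 2 and Agrp in 1, and the other 5 were above 0 in all. Hcrt, Pmch, Otp, Avp, Oxt and Agrp were also hits that the study picked from these same libraries for differing between groups. Differences of this list were therefore favoured in advance and are no independent measure of tissue content. Since the F1 IUO and F1 PNO libraries do not overlap in this summed level, it and the treatment cannot be told apart in that comparison, and its part in the receptor differences was not tested. Over all 24 libraries Pearson's r of the hypothalamus score was 0.282 with Oprm1, 0.265 with Oprd1, 0.104 with Oprk1 and 0.371 with Oprl1, each with an adjusted permutation p of 0.320 or more. Of 3 blood markers, 2 were above F1 SAL in F1 IUO at an unadjusted limma p under 0.05 (median of the 3, 1.98).

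The receptor differences were recomputed with the thalamus marker score, the mean of log2(FPKM + 0.1) over the 7 markers, as a covariate. The 2 Oprl1 differences were then −0.42 for F1 PNO against F1 SAL and 0.48 for F1 IUO against F1 PNO, and both kept an unadjusted limma p under 0.05. The Oprd1 difference of F1 IUO against F1 PNO was 0.58 with the covariate in place of 1.42, with an unadjusted p above 0.05, and that of F1 PNO against F1 SAL turned from −0.58 to 0.34, again above 0.05. The Oprd1 difference of F1 IUO against F1 SAL was 0.85 with the covariate and kept an unadjusted p under 0.05. Oprk1 in F1 IUO against F1 PNO was 0.83 in place of 0.51, and had an unadjusted p under 0.05 with this covariate. The part of habenula tissue in these values was not tested.
F1 SAL also differed from the other F1 groups in Kdm5d, which was above 1 FPKM in 4 of 4 F1 SAL, 2 of 4 F1 PNO and 1 of 4 F1 IUO libraries. With a Y-linked covariate Oprl1 in F1 PNO against F1 SAL was −0.58 and kept an unadjusted p under 0.05, and Oprd1 in F1 IUO against F1 SAL was 0.92 with a p above 0.05.

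**Figure D3:**
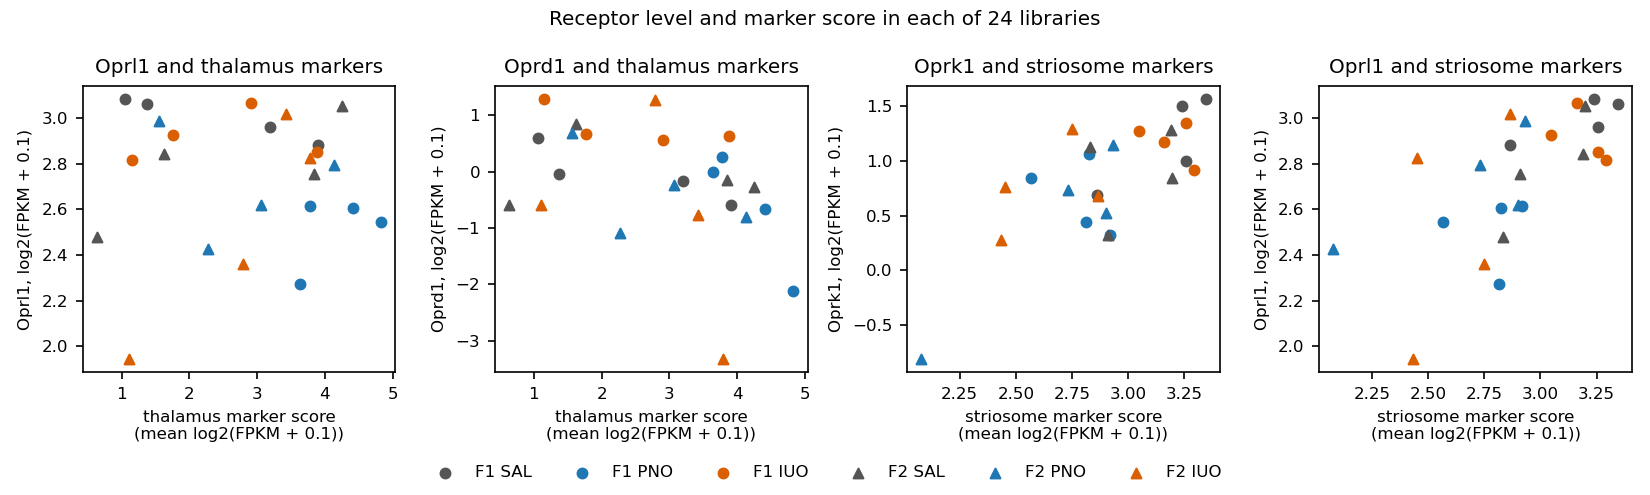
Receptor level (vertical axes, log2(FPKM + 0.1)) against the mean log2 level of a marker list (horizontal axes) in each of 24 libraries, by group (circles F1, triangles F2). Over all libraries Oprd1 tends to be lower where thalamus markers are higher (r = −0.434, adjusted permutation p = 0.166), and Oprl1 shows no such slope (r = 0.037). After centring on the group means, r with the thalamus score is −0.397 for Oprd1 and 0.395 for Oprl1. Oprk1 and Oprl1 are higher where striosome markers are higher (r = 0.729 and r = 0.668).

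**Figure D4:**
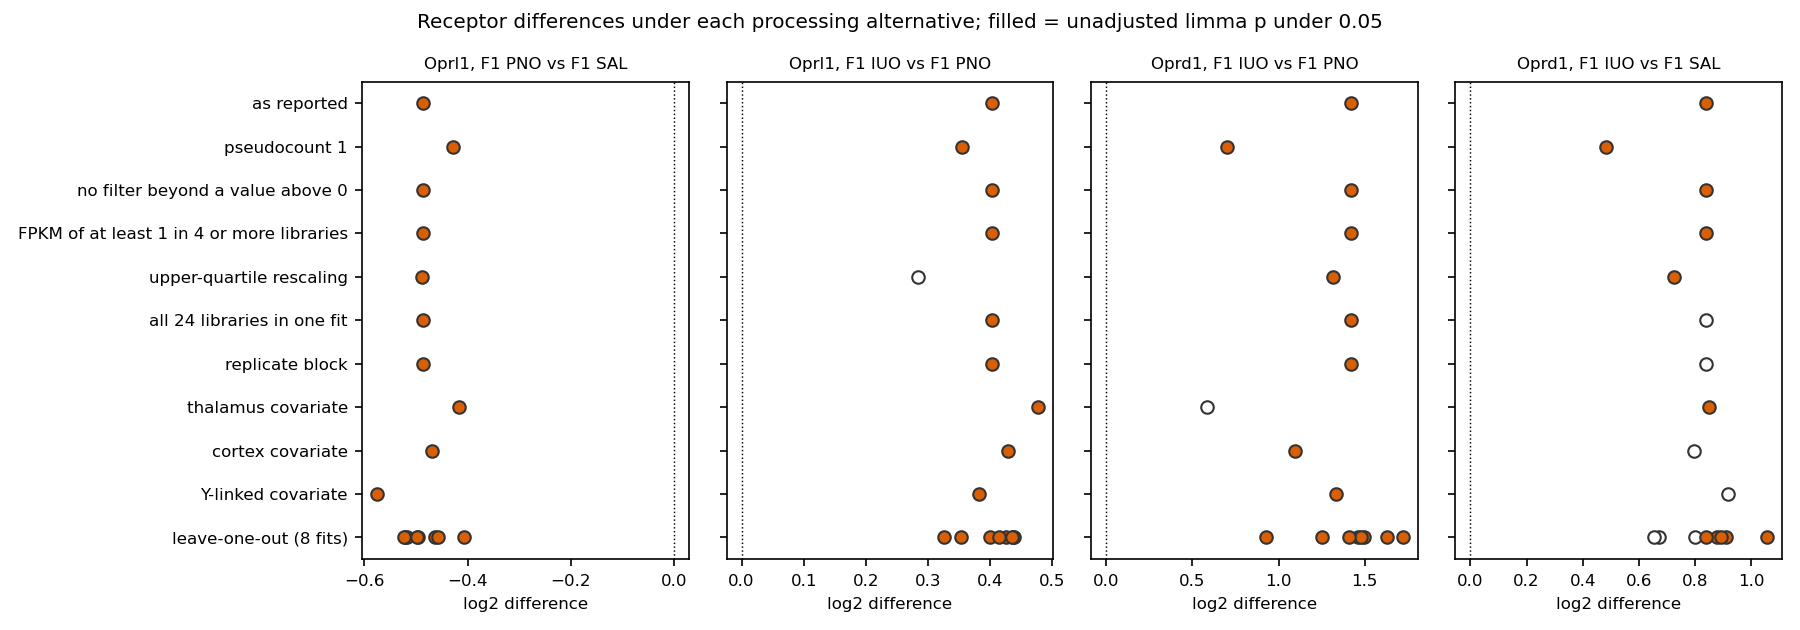
Log2 difference (horizontal axes) of the 4 receptor results with an unadjusted limma p under 0.05, under each processing alternative (vertical axis, with 8 points for the 8 fits that each leave out 1 library). Open points have p of 0.05 or more, and no point crosses 0: Oprl1 in F1 PNO against F1 SAL is filled throughout, while Oprd1 in F1 IUO against F1 PNO is open with the thalamus covariate. No striosome or projection neuron covariate was fitted.

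The levels of the receptors were also compared across the 24 libraries, which share their dissections and their groups. Of 6 receptor pairs, Oprm1 and Oprl1 had the highest correlation, with Pearson's r = 0.620 (permutation p = 0.00133, adjusted 0.00798) and Spearman's rho = 0.547. The value was 0.429 without the 2 libraries farthest from the Oprm1 median and 0.631 after centring on the group means. For Oprm1 and Oprk1 r was 0.531 (adjusted permutation p = 0.0214), with rho 0.429 (adjusted permutation p = 0.0555). For Oprk1 and Oprl1 r was 0.511 (adjusted permutation p = 0.0242), with rho 0.519. Oprd1 and Oprl1, the 2 receptors with calls in F1, had r = 0.170 (adjusted permutation p = 0.424), and −0.137 within groups.

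Among 64 relations with marker lists and library measures, the striosome list (Kremen1, Sema5b, Lypd1, Tshz1 and Bach2) was the one with an adjusted p under 0.05 for Pearson's r with all 4 receptors. Pearson's r was 0.729 for Oprk1 (adjusted permutation p = 0.00768), 0.668 for Oprl1 (0.0130), 0.641 for Oprd1 (0.0195) and 0.598 for Oprm1 (0.0256), and Spearman's rho was 0.592, 0.720, 0.654 and 0.484 in that order. By rank the adjusted permutation p was 0.0577 for Oprk1, 0.00704 for Oprl1, 0.0243 for Oprd1 and 0.181 for Oprm1, so 2 of the 4 passed. Within groups r was 0.644, 0.499, 0.557 and 0.558 in the same order. Without the 2 libraries farthest from the median striosome score it was 0.489 for Oprk1, 0.574 for Oprl1, 0.691 for Oprd1 and 0.381 for Oprm1. Projection neuron markers were related to Oprd1 alone among the receptors at an adjusted p under 0.05 for Pearson's r (r = 0.647, adjusted permutation p = 0.0130). By rank no receptor passed, with an adjusted permutation p of 0.0577 for both Oprd1 (rho = 0.568) and Oprk1 (rho = 0.566). Without the 2 libraries farthest from the median projection neuron score, r with Oprd1 was 0.479. Whether the 4 relations differ was not tested. Thalamus markers had r = −0.434 with Oprd1 (adjusted permutation p = 0.166). The same adjusted permutation p was found with Oprd1 for septum (r = −0.466), striatal interneuron (0.446) and microglia markers (0.453). It was also found for oligodendrocyte markers with Oprk1 (−0.470) and astrocyte markers with Oprl1 (0.444). The number of genes listed at 0 had r = −0.457 with Oprl1 at that adjusted p, and −0.551 within groups.

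By Pearson's r over the 24 libraries, on the log2 scale and among 13551 genes, the genes most like Oprk1 were Grm5, a metabotropic glutamate receptor (r = 0.876), Etv3 (0.862) and Synpr, a synaptic vesicle protein (0.856). For Oprd1 they were Adra2c, an adrenergic receptor (0.811), Adcy5, the main striatal adenylyl cyclase (0.762), and Pcdhga4, a protocadherin (0.757). For Oprl1 they were AC094053.1 (0.859), Rassf2 (0.838) and Zhx3 (0.837), and for Oprm1 Dst, a cytoskeletal linker (0.811), Psd3 (0.805) and Igsf9b, a synaptic adhesion protein (0.803). These are descriptions of the highest of many values.

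The peptide precursors were far above the receptors on the same per-length scale, with Penk at 81.5 to 326 FPKM and Pdyn at 19.1 to 61.0. Penk in F1 was at 116, 250, 322 and 251 FPKM in SAL and at 194, 136, 176 and 180 in PNO. In F1 IUO it was at 249, 326, 230 and 249 FPKM. All F1 IUO pups were above all F1 PNO pups, while F1 SAL overlapped both. F1 IUO was higher than F1 PNO by 0.62 on the log2 scale (SE 0.15, limma adjusted p = 0.123), and this was 0.42 with the thalamus covariate, with an unadjusted p above 0.05.

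Pdyn in F1 was at 20.4, 40.5, 61.0 and 55.5 FPKM in SAL and at 25.5, 22.3, 19.1 and 30.6 in PNO. In F1 IUO it was at 45.2, 60.1, 38.3 and 43.0 FPKM. F1 PNO lay wholly below F1 IUO, and below 3 of the 4 F1 SAL pups, the fourth being replicate 1 at 20.4. F1 IUO was higher than F1 PNO by 0.93 (SE 0.18, limma adjusted p = 0.0853), a value of 0.80 with the thalamus covariate, still with an unadjusted p under 0.05. F1 PNO against F1 SAL was −0.77 (SE 0.32, limma adjusted p = 0.324), which was −0.072 with that covariate and had an unadjusted p under 0.05 in 2 of 8 fits that left out 1 library. Neither Penk nor Pdyn had an unadjusted p under 0.05 in an F2 treatment comparison.

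Pnoc, the nociceptin precursor, was at 6.27, 6.73, 8.55 and 7.26 FPKM in F2 SAL and at 13.6, 10.8, 13.3 and 7.65 in F2 IUO. In F2 IUO 3 of 4 pups were above all F2 SAL pups. The log2 difference was 0.62 (SE 0.20, limma adjusted p = 0.543), and 0.51 with a cortex marker covariate, with an unadjusted p above 0.05. Pomc was at 2.42, 2.33, 1.51 and 2.01 FPKM in F2 SAL and at 4.39, 2.06, 5.38 and 4.21 in F2 IUO, a log2 difference of 0.87 (SE 0.31, limma adjusted p = 0.553) that had p under 0.05 in 5 of 8 fits that left out 1 library. In F2 PNO, Pomc was at 2.21, 2.33 and 1.67 FPKM in replicates 1 to 3 and at 818 in replicate 4, the library with high Gh1.

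**Figure D5:**
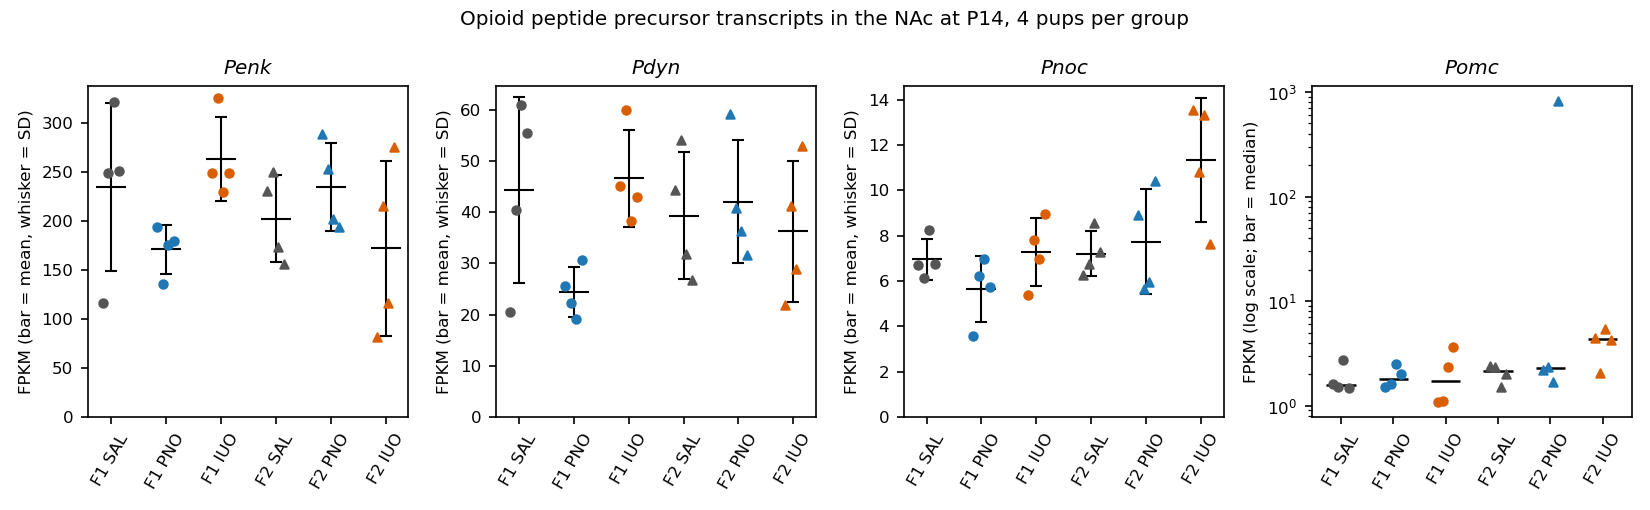
Level of the 4 opioid peptide precursor transcripts (vertical axes, FPKM, linear from 0 except for Pomc, which has a log axis) in the 6 groups, 1 point per pup, with mean and SD or, for Pomc, the median. For Pdyn all 4 F1 PNO points are below all 4 F1 IUO points, and for Pomc 1 F2 PNO pup stands at 818 FPKM.

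The opioid signalling list held 44 other genes: the 4 precursors, 9 peptide processing and breakdown genes, 7 Gi/o protein genes, 14 receptor regulators and 10 effectors. In F1 IUO against F1 PNO, 12 were higher and 3 lower at an unadjusted limma p under 0.05, 34.1% of the list beside 16.5% of all genes tested. In 1 fit of all 24 libraries 7 list genes had such a p. In the same comparison 7 of 10 projection neuron and 4 of 5 striosome markers were higher at such a p. Rgs9 is on both the opioid signalling and the projection neuron list. The part of these cell types in the list count, and in the Penk, Pdyn and effector differences, was not tested. The comparison of F1 PNO with F1 SAL had 5 higher and 3 lower, 18.2% beside 13.9% of all genes, and that of F1 IUO with F1 SAL had 2 higher and 0 lower, 4.55% beside 3.91%. F2 IUO had 4 higher and 1 lower than F2 SAL, 11.4% beside 8.49%, and 3 higher and 0 lower than F2 PNO, 6.82% beside 7.07%. F2 PNO had 0 higher and 1 lower than F2 SAL, 2.27% beside 10.8%. None of the 44 had an adjusted p under 0.05 in any comparison.

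Among effectors, 7 of 10 were above their F1 PNO level in F1 IUO, 4 of them at an unadjusted limma p under 0.05. Adcy5, an adenylyl cyclase that Gi/o proteins inhibit, was higher by 0.74 (SE 0.12, limma adjusted p = 0.0695). Adcy1, a calcium-stimulated adenylyl cyclase, was higher by 1.25 (SE 0.21, limma adjusted p = 0.0721). Cacna1b, the pore subunit of the N-type calcium channel that presynaptic opioid receptors inhibit, was higher by 0.56 (SE 0.16, limma adjusted p = 0.150). With the thalamus covariate these were 0.69, 1.36 and 0.33, and the last no longer had an unadjusted p under 0.05. Adcy1 also exceeded its F1 SAL level in F1 IUO, by 0.75 (limma adjusted p = 0.999), and this p was above 0.05 without F1 SAL replicate 2 or 3.

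Adcy5 was lower in F1 PNO than in F1 SAL, by −0.54 (limma adjusted p = 0.282), a value of −0.19 with the thalamus covariate and an unadjusted p above 0.05. In F2 it was lower in IUO than in SAL, at −0.61 (limma adjusted p = 0.501), and in PNO than in SAL, at −0.37 (limma adjusted p = 0.452), the latter with p under 0.05 in 2 of 8 fits that left out 1 library. All 10 projection neuron markers were also below F2 SAL in F2 IUO, by a median of −0.51 and with an unadjusted p under 0.05 for 3. Adcy5 had an unadjusted p under 0.05 in 4 of the 6 treatment comparisons.

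Among receptor regulators, Rgs14, a regulator of G protein signalling, was lower in F1 PNO than in F1 SAL by −0.59 (limma adjusted p = 0.280) and Rgs4, which speeds the switching off of Gi/o proteins, was higher by 0.44 (limma adjusted p = 0.308). With the thalamus covariate both had an unadjusted p above 0.05, at −0.26 and 0.11. Rtp4, which helps opioid receptors reach the cell surface, was higher in F1 IUO than in F1 SAL by 0.77 (limma adjusted p = 0.999), with p under 0.05 in 2 of 8 fits that left out 1 library. Arrb2, the arrestin that binds phosphorylated opioid receptors, was higher in F2 IUO by 0.30 against F2 SAL (limma adjusted p = 0.553) and by 0.34 against F2 PNO (limma adjusted p = 0.622). Upper-quartile rescaling left these at 0.22 and 0.17, both with an unadjusted p above 0.05. Grk6, a receptor kinase, was higher in F2 IUO than in F2 PNO by 0.41 (limma adjusted p = 0.699), with p under 0.05 in 2 of 8 fits that left out 1 library.

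Among processing genes, Pcsk1, a prohormone convertase that cuts the precursors, was higher in F2 IUO than in F2 SAL by 0.58 (SE 0.21, limma adjusted p = 0.553). Pcsk1n, its inhibitor proSAAS, was higher in F2 IUO than in F2 PNO by 0.63 (SE 0.15, limma adjusted p = 0.431). All 7 cortex markers were above their F2 SAL level in F2 IUO, by a median of 0.78 on the log2 scale, 4 of them at an unadjusted limma p under 0.05. With a cortex covariate Pcsk1 was 0.48 and Arrb2 against F2 SAL 0.30, both with an unadjusted p above 0.05.

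Between generations, 7 of the 44 genes were lower and 3 higher in F2 IUO than in F1 IUO at an unadjusted limma p under 0.05, 22.7% beside 15% of all genes tested. Adcy5 differed by −0.84 (SE 0.19, limma adjusted p = 0.221), Adcy1 by −1.34 (SE 0.36, limma adjusted p = 0.230) and Cacna1b by −0.57 (SE 0.18, limma adjusted p = 0.236). The same effectors were named for F1 IUO against F1 PNO, and both comparisons use the same F1 IUO libraries. Of the precursors, Penk was lower in F2 IUO by −0.76 (limma adjusted p = 0.328), while Pnoc was higher by 0.62 (limma adjusted p = 0.264) and Pomc by 1.03 (limma adjusted p = 0.311). Of 8 fits that left out 1 library, 2 had an unadjusted p under 0.05 for Penk (differences of −1.04 to −0.45), 5 for Pnoc and 3 for Pomc.

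In F2 PNO against F1 PNO 3 genes of the list were higher and 2 lower, 11.4% beside 4.76% of all genes tested. Pdyn was higher by 0.76 (SE 0.21, limma adjusted p = 0.838), Penk by 0.45 (limma adjusted p = 0.948, with an unadjusted p under 0.05 in 5 of 8 fits that left out 1 library) and Rgs14 by 0.51 (limma adjusted p = 0.917). Rgs4 was lower, at −0.47 (limma adjusted p = 0.948), as was Wls, a carrier of Wnt proteins that binds the mu receptor, at −0.61 (limma adjusted p = 0.948). With the thalamus covariate Pdyn alone of these 5 kept an unadjusted p under 0.05. In F2 SAL against F1 SAL the 1 gene with such a p was Pcsk1n, higher by 0.45 (limma adjusted p = 0.569).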

How the data were processed

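RNA from the NAc of 24 pups, 4 in each of 6 groups taken from the labels, was sequenced, and the authors deposited 1 table per library with an FPKM value per gene. Per the labels' processing notes the authors used HISAT2, SAMtools, StringTie and edgeR. Versions and the genome build are not given in the sources used here. FPKM sums were 535866 to 766781 per library, no column other than FPKM was used, and without read depth no interval for counting error could be computed.

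Genes that reached 0.1 FPKM in at least 4 libraries of a comparison were fitted with limma 3.58.1 (R 4.3.3, eBayes with trend, two-sided) on log2(FPKM + 0.1), with Benjamini-Hochberg adjustment over all genes tested. The pseudocount makes differences of low genes appear smaller. Each fit held only the libraries it compares. Since the authors' edgeR needs counts, limma replaced it and was tested on simulated data. Single receptors were also compared with exact permutation tests, and correlations with 100000 permutations (scipy 1.17.1, Python 3.11.15). A call in the text is an unadjusted p under 0.05.

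The receptors and precursors were named throughout, up to 3 other list genes per comparison by smallest p among those with an unadjusted p under 0.05, and for each receptor the 3 genes with the highest Pearson's r among genes that reached 1 FPKM in at least 12 libraries. The members, lists and tests were chosen with earlier results of these data known. Gh1 was looked at after the Pomc value was seen. The Y-linked covariate used Kdm5d and Eif2s3y. Alternatives were a pseudocount of 1, 2 other filters, upper-quartile rescaling, all 24 libraries in 1 fit, a replicate block, thalamus, cortex and Y-linked covariates and leaving out each library. Those for list genes were added after seeing the data. The names of overlapping genes came from RefSeq, assembly GRCr8.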

Additional observations from a re-analysis of the deposited data

Results flagged for a closer look

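Each of the 4 receptors and 4 precursors was examined in each of the 6 groups of 4 pups for a pup far from the other 3, by the gap to the nearest pup divided by the range of the group (Dixon's test at the 95% level). Of 48 groups 3 exceeded it, and chance flags about 1 in 20, here 2.4. Oprd1 in F1 IUO had a gap of 0.8854 of the range, with replicate 1 at 2.34 FPKM and the others at 1.38 to 1.49. Without that pup the Oprd1 difference of F1 IUO against F1 SAL was 0.67 on the log2 scale, with an unadjusted limma p above 0.05.

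Pomc in F2 PNO had a gap of 0.9992, with replicate 4 at 818 FPKM and the others at 1.67 to 2.33. In the same library Gh1 was 4682 FPKM, Cga 633, Tshb 387 and Prl 150, against at most 4.79, 0.41, 1.40 and 0.61 in the 23 others. Pomc in F1 SAL had a gap of 0.8976, with replicate 3 at 2.76 FPKM and the others at 1.49 to 1.62.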

How the results depend on the processing

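The 36 receptor differences and 12 interaction terms were recomputed under 633 alternatives, and 567 kept the direction and the side of an unadjusted limma p of 0.05. No adjusted p was under 0.05 in any of them. The cause of the changes below was not tested. Filters on low values changed no call. They, the 1 fit of all libraries and the replicate block leave the log2 difference itself unchanged, so a direction could not turn under them. With the filter of 1 FPKM in at least 4 libraries only 21 of the 36 receptor differences were fitted. Oprm1, which never reached 1 FPKM, was not among them. Interaction terms were not refitted without single libraries.

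The Oprd1 difference of F1 IUO against F1 SAL lost its unadjusted p under 0.05 in 1 fit of all 24 libraries (0.84), with the cortex covariate (0.80) and with the Y-linked covariate (0.92). Same-numbered libraries did not deviate together (correlations −0.27 to 0.13), so the numbers pair nothing, and a fit with the replicate number as a block moved only that receptor call (0.84). Oprl1 in F1 IUO against F1 PNO lost it after upper-quartile rescaling (0.28) and Oprd1 in the same comparison with the thalamus covariate (0.58). That rescaling moved the median of all genes by −0.16 to 0.086.

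An unadjusted p under 0.05 was gained by Oprk1 in F1 IUO against F1 PNO with a pseudocount of 1 (0.34) or the thalamus covariate (0.83), by Oprd1 in F2 IUO against F2 SAL with the Y-linked covariate (−2.47), and in F2 IUO against F1 IUO by Oprm1 (−0.95) and Oprd1 (−1.64) in 1 fit of all libraries, Oprk1 with the cortex covariate (−0.73) and Oprd1 with the Y-linked covariate (−2.18). The Oprl1 interaction terms gained it for PNO against SAL after rescaling (0.50) and for IUO against PNO in 1 fit (−0.57). The Oprd1 values with the Y-linked covariate draw on F2 IUO replicate 1, where Oprd1 is listed at 0.

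Directions turned as follows, none with an unadjusted p under 0.05. With upper-quartile rescaling these were Oprm1 in F2 IUO against F2 SAL (−0.028), Oprl1 in F2 PNO against F2 SAL (0.016) and Oprd1 in F2 SAL against F1 SAL (−0.035). With the thalamus covariate they were Oprd1 in F1 PNO against F1 SAL (0.34), Oprm1 in F2 IUO against F2 SAL (−0.049), and Oprm1 (0.22) and Oprd1 (−0.69) in F2 PNO against F1 PNO. With the cortex covariate they were Oprk1 in F1 IUO against F1 SAL (0.072), Oprk1 in F2 IUO against F2 PNO (−0.31), Oprd1 in F2 SAL against F1 SAL (−0.016), and Oprm1 (0.035) and Oprk1 (0.075) in F2 PNO against F1 PNO. With the Y-linked covariate they were Oprm1 in F2 IUO against F2 SAL (−0.35), and Oprm1 (0.53) and Oprl1 (0.58) in F2 SAL against F1 SAL.

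Leaving out 1 library at a time gave these ranges where a call or direction changed. For Oprm1 they were −0.42 to 0.12 in F1 PNO against F1 SAL, −0.36 to 0.33 in F2 IUO against F2 SAL, −0.071 to 0.42 in F2 PNO against F2 SAL, −0.49 to 0.20 in F2 IUO against F2 PNO, −0.38 to 0.11 in F2 PNO against F1 PNO and −1.31 to −0.62 in F2 IUO against F1 IUO. For Oprd1 they were 0.66 to 1.06 in F1 IUO against F1 SAL, −1.52 to 0.015 in F2 IUO against F2 SAL, −1.20 to 0.33 in F2 IUO against F2 PNO, −0.29 to 0.23 in F2 SAL against F1 SAL, −0.22 to 0.57 in F2 PNO against F1 PNO and −2.35 to −0.82 in F2 IUO against F1 IUO. For Oprk1 they were −0.18 to 0.11 in F1 IUO against F1 SAL, −0.69 to −0.40 in F1 PNO against F1 SAL, 0.40 to 0.64 in F1 IUO against F1 PNO, −0.33 to 0.019 in F2 IUO against F2 SAL, −0.048 to 0.60 in F2 IUO against F2 PNO and −0.52 to 0.13 in F2 PNO against F1 PNO. For Oprl1 they were −0.18 to 0.018 in F2 PNO against F2 SAL, −0.33 to 0.029 in F2 IUO against F2 PNO and −0.54 to −0.18 in F2 IUO against F1 IUO.

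For the named list genes, 32 differences had 480 alternatives, of which 363 kept the call, 117 lost it and 0 turned. The count of list genes with an unadjusted p under 0.05 ran from 7 to 16 in F1 IUO against F1 PNO and from 0 to 16 in F1 PNO against F1 SAL, with 0 under the thalamus covariate.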
